A study of Mus musculus with 16 samples.

Results

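Neutrophils are short-lived white blood cells that leave the bone marrow with a store of ready-made granule proteins and follow chemoattractants into tissue. S100a8 and S100a9, the subunits of the calcium-binding protein calprotectin, are the most abundant proteins of their cytoplasm and served here as the entry marker. Granules fill in a fixed order during maturation: primary granules hold myeloperoxidase and serine proteases, secondary granules hold lactoferrin, cathelicidin and lipocalin, and tertiary granules hold gelatinase. In tissue, neutrophils make cytokines and chemokines of their own, among them interleukin 1 beta and the CXCR2 ligand Cxcl2, which calls in more neutrophils.

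The cells came from 16 libraries of single-cell RNA, 1 mouse each, made from the thoracic aorta between the root and the arch. All mice were male, of strain 129S6/SvEv, and carried Myh11-CreER, a recombinase expressed from the smooth muscle myosin promoter and switched on by tamoxifen. The Smad3+/+ controls had intact Smad3, the mice labelled Smad3SmKO had floxed Smad3 alleles, and both received tamoxifen for 5 days from 6 weeks of age. Aortas were taken 10 weeks later (2 libraries of each genotype) or 18 weeks later (5 Smad3+/+ and 7 labelled Smad3SmKO), at about 16 and 24 weeks of age. A Myh11-GFP tracer is given for both Smad3+/+ libraries of 10 weeks and for 5 libraries of 18 weeks, the latter being the ones digested for 60 min. GFP reads in smooth muscle cells went against this label in 4 libraries: Smad3+/+ replicates 4 and 5 of 18 weeks, labelled with the tracer, had 0 GFP UMIs, and the Smad3SmKO libraries of 10 weeks, labelled without it, had 223 and 123. The recombinase is driven in smooth muscle cells, so neutrophils were not its target. Smad3 RNA in the smooth muscle cells averaged 7.83 ± 3.15 CPM (counts in 1e6 UMIs, SD, n = 5) in Smad3+/+ at 18 weeks and 9.63 ± 4.43 (n = 7) under the Smad3SmKO label, and 3' reads outside a deleted exon would not show the deletion. The label is therefore used below as given.

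A cell counted as a neutrophil when it held at least 20 UMIs (unique transcript molecules) of S100a8 and S100a9 together, and fewer than 5 UMIs each of the 3 C1q genes of macrophages together, of the smooth muscle gene Myh11 and of the fibroblast gene Dcn. Cells were first kept within 600 to 6000 genes and 2000 to 50000 UMIs, with under 25% mitochondrial UMIs. This gave 741 neutrophils among 50858 kept cells (1.457%). They were chosen by their UMIs of the S100 genes and of the exclusion markers, so those values are description only. Near the threshold, 27 of the neutrophils held 20 to 29 S100 UMIs, and 32 cells just outside held 10 to 19. Without the exclusion markers 856 cells would have entered, with Dcn removing 79 of them, Myh11 34 and C1q 5.

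The cells carried the other defining genes of neutrophils. A UMI of at least 1 of Csf3r, Cxcr2, Retnlg and Il1r2, none of which the rule used, was present in 736 of the 741 cells (99.3%). All 15 genes of the neutrophil list averaged over 100 CPM. CPM are the UMIs of a gene in 1e6 UMIs summed over the neutrophils of a library. The list includes S100a8 and S100a9, which chose the cells, so their levels are no check of the name. The 12 macrophage genes summed to between 21.9 and 233 CPM, with none averaging 100 CPM and Folr2 and Cx3cr1 at 0. That list includes C1qa, C1qb and C1qc, which the rule held low, so part of this low sum was set by the rule. Of the dendritic cell genes 6 of 7 were at 0, of the T and NK cell genes 6 of 8, and of the B and plasma cell genes 4 of 6. The erythroid genes summed to at most 23.0 CPM. Primary granule genes were close to absent: Mpo, Ctsg, Ms4a3 and Bpi were at 0 and all 7 summed to at most 21.9 CPM. These genes are transcribed in the promyelocytes of the marrow. Cell cycle genes summed to 0 to 138 CPM. Smooth muscle genes summed to 62.1 to 1973 CPM, fibroblast genes to 470 to 1275 CPM and monocyte genes to 251 to 1295 CPM. These were the lists of other cells with the highest sums. Myh11 and Dcn, in the smooth muscle and fibroblast lists, were capped by the rule as well.

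One library stood apart. Smad3SmKO replicate 5 of 18 weeks held 404 of the 741 neutrophils (54.5%), and 291 of the 362 neutrophils that carried 2 or more UMIs of other cell types. The S100 genes also reached their highest level outside the neutrophils there, 264 CPM against 1.44 in the lowest library. The main results that this library moved are given with and without it. Replicate numbers below belong to 18 weeks unless 10 weeks is stated. Of the other libraries, 10 held at least 10 neutrophils, and these 11 libraries (29193 to 1083850 summed UMIs) give the levels. Median depth per neutrophil ran from 2393 to 4583 UMIs and from 696 to 1078 genes, against 3950 to 11905 UMIs in macrophages. No barcode was a neutrophil in more than 1 library.

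The share of neutrophils varied far more between mice than between genotypes. At 18 weeks the 5 Smad3+/+ libraries held 0.666%, 0.337%, 0.982%, 0.859% and 1.73% of neutrophils among kept cells (replicates 1 to 5, from 11 to 69 cells). The 7 libraries labelled Smad3SmKO held 3.26%, 0.113%, 2.78%, 1.82%, 10.3%, 0.631% and 0.475% (replicates 1 to 7, from 3 to 404 cells). The groups overlapped, since 3 of the 7 lay below the Smad3+/+ mean and the lowest value of all 12 was in the Smad3SmKO group. The exact 95% binomial interval of replicate 5 was 9.37% to 11.3%, above the interval of every other library, and it covers counting error only. The means were 0.916% ± 0.518 (SD, n = 5) and 2.77% ± 3.53 (n = 7), a difference of 1.85 percentage points with p = 0.304 in a two-sided exact permutation test over 792 splits. Without replicate 5 the second mean was 1.51% ± 1.31, the difference 0.597 points and the exact permutation p = 0.368.

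Libraries were made in 6 batches, which also set the digestion time of 30 or 60 min. All 10-week libraries were in batch 4, digested for 60 min, and no 18-week library was in that batch. At 18 weeks the values by batch were as follows. Smad3SmKO minus Smad3+/+ was 0.782 points in batch 1, 2.28 in batch 2, 1.48 in batch 3 and −0.665 in batch 6, so the direction turned in batch 6. Batch 5 held only Smad3SmKO libraries, with a mean of 5.39%. Permuting within batches gave an exact p of 0.194 over 36 arrangements. Macrophages, the cells with 20 or more C1q UMIs, made up 3.07% ± 1.75 of kept cells in Smad3+/+ and 4.31% ± 2.67 in Smad3SmKO.

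At 10 weeks few neutrophils passed the depth limits. The Smad3+/+ libraries held 17 neutrophils (0.456%) and 6 (0.126%). The libraries labelled Smad3SmKO held 0 of 4312 cells, which allows a share of up to 0.0696%, and 2 cells (0.0592%). The difference was −0.261 percentage points with an exact permutation p of 0.333, the smallest that 2 against 2 libraries can give.

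The lower limits on depth removed more neutrophils than macrophages, and most at 10 weeks. With no lower limit on UMIs and genes 1881 barcodes passed the same gates, so the limits kept 39.4% of them, against 96.7% of macrophages. They kept 0% to 21.0% of the neutrophils of each 10-week library and 35.9% to 100% of those of each 18-week library. The macrophages of the 10-week libraries were also shallower, with medians of 3950 to 5728.5 UMIs against 6302 to 11905 at 18 weeks, and the part of library depth in these shares was not tested. At 10 weeks the Smad3+/+ mean was then 1.72% ± 0.0901 (n = 2) and the Smad3SmKO mean 0.734% ± 0.0261 (n = 2) and the groups did not overlap, a difference larger than the spread between libraries, with the same smallest possible p. The 18-week Smad3+/+ mean was 1.06% ± 0.837 (n = 5) without the limits, below that of 10 weeks, whereas with the limits it was above it. The 10-week libraries were a batch of their own, so time after tamoxifen cannot be told apart from batch here. At 18 weeks the genotype difference grew to 3.27 points (exact permutation p = 0.362), with 18.5% in replicate 5.

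**Figure D1:**
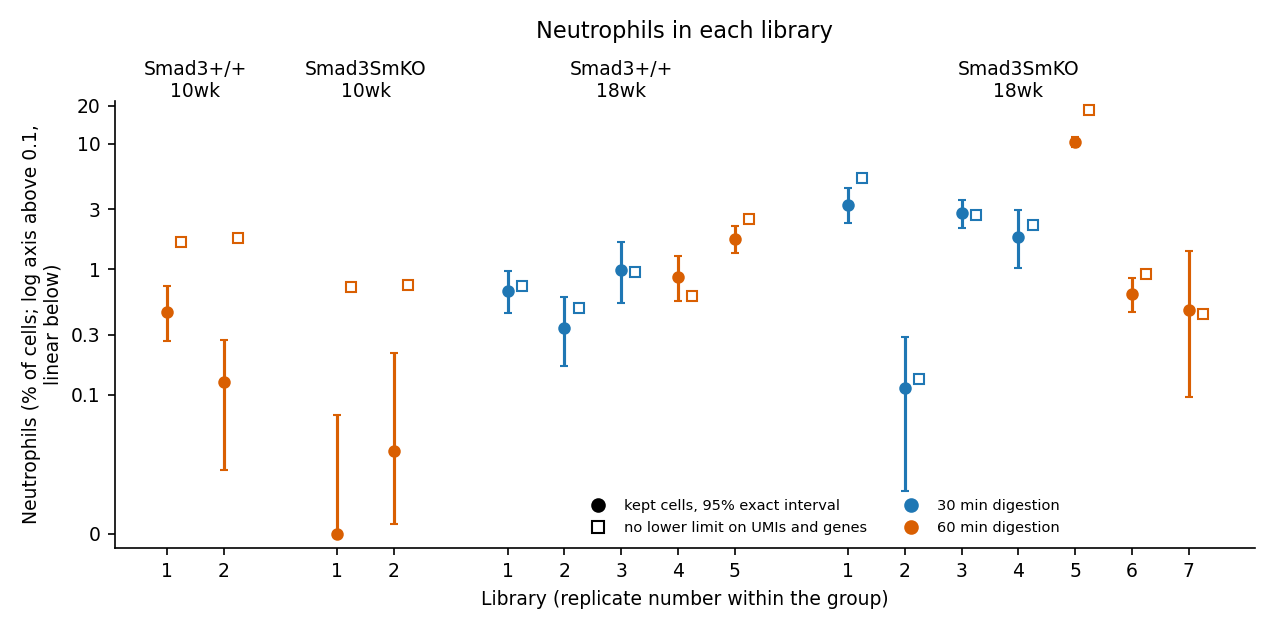
Neutrophils as a percent of cells (vertical axis, logarithmic above 0.1) in each of the 16 libraries, by group, with the exact 95% binomial interval as bars and 30 or 60 min digestion as colour; open squares drop the lower limits on UMIs and genes. Smad3SmKO replicate 5 of 18 weeks lies at 10.3%, above every other library, while the remaining 18-week libraries of the 2 genotypes overlap.

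Some genes differed little between libraries and others widely. S100a9 (chr3:90692632-90695721, mm10) and S100a8 (chr3:90668978-90670035), which chose the cells, stood at 117818 and 68678 CPM on average over the 11 libraries. Mmp9, the gelatinase of the tertiary granule, lay between 1020 and 1745 CPM in all 11. Hdc, which makes histamine, lay between 1359 and 2198 CPM in the 18-week libraries and at 839 CPM in the 10-week library. The receptors were present in each library, over a wider range: Csf3r, the receptor of the growth factor G-CSF, between 317 and 3014 CPM and Cxcr2, the receptor for Cxcl1 and Cxcl2, between 306 and 1295 CPM. The 6 NADPH oxidase genes, which make the oxidative burst, summed to 3253 to 5100 CPM, a narrow range. The integrin chains Itgb2 and Itgam, which bind endothelium, lay at 149 to 444 and 212 to 467 CPM.

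The other granule genes ranged more widely. Retnlg (chr16:48872621-48874496), a resistin-like protein of mature neutrophils, was at 40760, 15072, 14664, 28026 and 14603 CPM in the 5 Smad3+/+ libraries of 18 weeks. In Smad3SmKO replicates 1, 3, 4, 5 and 6 it was at 13586, 56014, 8363, 2021 and 36472 CPM. The lowest and the highest value both lay in the second group. Mmp8, neutrophil collagenase, followed the same order within Smad3SmKO: 609, 3724, 149, 59.0 and 3052 CPM, against 2864, 274, 693, 1255 and 479 CPM in Smad3+/+. Lcn2, the iron-trapping lipocalin, was also lowest in replicate 5 (732 CPM) and highest in replicates 3 and 6 (12229 and 12196 CPM).

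Several secondary granule genes, made late in the marrow, were at 0 in some libraries. Ngp (chr9:110419747-110423012), neutrophilic granule protein, was at 312, 0, 0, 6729 and 6046 CPM in Smad3+/+, at 626, 2439, 0, 4.61 and 6542 CPM in Smad3SmKO replicates 1, 3, 4, 5 and 6, and at 11353 CPM in Smad3+/+ replicate 1 of 10 weeks. Camp, the cathelicidin, and Ltf, lactoferrin, were at 0 in 3 and 4 of these libraries and at 9412 and 2320 CPM in the 10-week library. The zero libraries held few cells (11, 14 and 15 for Ngp). The 9 secondary granule genes together ranged from 3882 CPM in Smad3SmKO replicate 5 to 37269 CPM in the 10-week library. The 8 tertiary granule genes ranged from 4198 CPM in replicate 5 to 65122 CPM in replicate 3. Retnlg alone made up most of the sum in replicate 3, and Mmp9 of the same list kept the narrow range given above.

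Where Camp, Ngp and Ltf were high, their UMIs lay mostly in a minority of cells. Every neutrophil was thinned to 2000 UMIs, and 40 of 741 then held at least 5 UMIs of Camp, Ngp and Ltf together, in 9 libraries. They made up 12 of 62 cells in Smad3SmKO replicate 3 (19.4%, exact 95% interval 10.4% to 31.4%), 13 of 41 in replicate 6 (31.7%, 18.1% to 48.1%) and 5 of 17 in Smad3+/+ replicate 1 of 10 weeks (29.4%, 10.3% to 56.0%). In replicate 5 they were 0 of 404 (exact 95% upper limit 0.909%), and the other libraries with at least 20 neutrophils held 1 or 2 each. None of 1622 macrophages thinned alike reached 5 UMIs, with a rougher upper limit of 0.185% (3 cells in 1622) in place of an exact one. In Smad3SmKO replicates 3 and 6 the cells above this level held 80.7% and 93.5% of all UMIs of the 3 genes. Mmp8 was spread more widely. At least 1 Mmp8 UMI was left after thinning in 95.2% of the cells of Smad3SmKO replicate 3 and in 7.43% of those of replicate 5.

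Replicate 5 was at the other end for nearly every cell. The median neutrophil there held 0 Retnlg UMIs after thinning, against 11.5 to 107 in the 6 other 18-week libraries with at least 20 neutrophils. Its median Cxcl2 count was 215.5 UMIs, against 40 to 102 in those 6. At least 100 Cxcl2 UMIs were found in 350 of its 404 cells (86.6%), against 7.14% to 51.2% in the other libraries with at least 10 neutrophils and 0% to 49.2% of macrophages. Replicate 7, the other library of its batch, held 3 neutrophils, all 3 of them with at least 100 Cxcl2 UMIs (median 269) and a median of 0 Retnlg UMIs. The S100 genes that chose the cells had a median of 116 UMIs in replicate 5 and at least 322 in the 6 other libraries with at least 20 neutrophils. Within these 7 libraries the rank correlation of Retnlg with Cxcl2 over cells lay between −0.44 and −0.02 and that of Retnlg with the S100 genes between 0.33 and 0.71. These are descriptions of cells that share a library and a fixed number of UMIs.

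**Figure D2:**
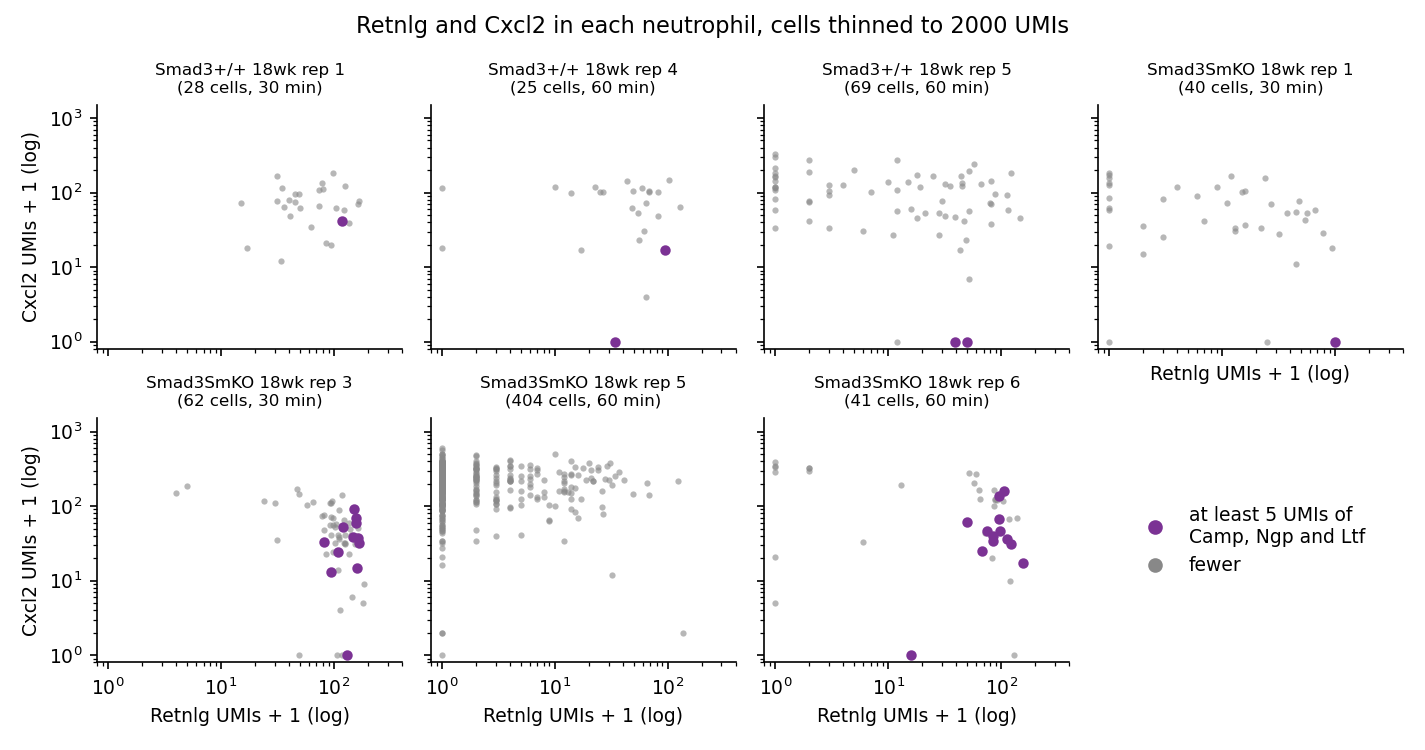
Each point is 1 neutrophil thinned to 2000 UMIs, with Retnlg UMIs + 1 (horizontal, logarithmic) against Cxcl2 UMIs + 1 (vertical, logarithmic), 1 panel for each 18-week library with at least 20 neutrophils; purple marks cells with at least 5 UMIs of Camp, Ngp and Ltf. Purple cells lie mostly at high Retnlg, with 12 and 13 of them in Smad3SmKO replicates 3 and 6, and the 404 cells of replicate 5 crowd at low Retnlg and high Cxcl2.

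Cytokine and chemokine genes formed the other large part of the RNA. Cxcl2 averaged 38261 CPM, the third level among nuclear genes other than ribosomal protein genes, and Il1b (chr2:129364570-129371139) 13401 CPM. Il1b was at 15370, 12537, 10958, 7250 and 11296 CPM in Smad3+/+ and at 13789, 6414, 20865, 31096 and 10632 CPM in Smad3SmKO replicates 1, 3, 4, 5 and 6. The groups overlapped and replicate 5 was the highest. The 14 genes of the list summed to 24138 CPM in the 10-week library and to 164896 CPM in replicate 5.

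**Figure D3:**
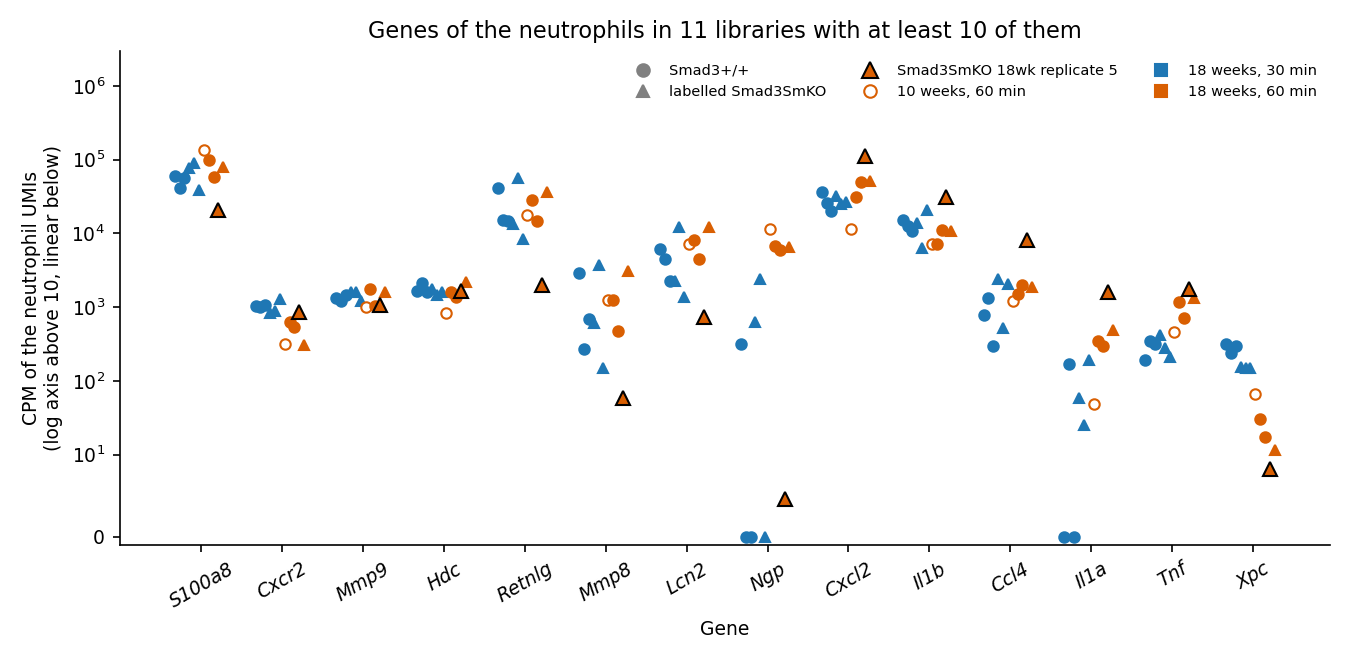
Level of 14 genes in the neutrophils (CPM, logarithmic above 10) in the 11 libraries with at least 10 of them; shape gives genotype, colour digestion time, open symbols 10 weeks, and a black edge marks Smad3SmKO replicate 5. Mmp9 and Hdc keep a narrow range, Retnlg, Mmp8 and Ngp spread widely, and the 60 min libraries of 18 weeks lie above the 30 min libraries for Tnf and below them for Xpc.

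Genotype moved almost nothing past the threshold within neutrophils. UMIs were summed over the neutrophils of each library and compared at 18 weeks, with batch as a covariate, over 5 Smad3+/+ and 5 Smad3SmKO libraries. Replicate 5 is the only one of batch 5 in this fit, so its batch term takes it up and the contrast rests on 5 against 4 libraries. Of 1180 genes tested, 1 (0.0847%) passed an adjusted p of 0.05 in edgeR's quasi-likelihood test with Benjamini-Hochberg adjustment, and 44 (3.73%) were under an unadjusted 0.05. DESeq2 also called 1 gene, with 23 under an unadjusted 0.05. At 10 weeks the libraries labelled Smad3SmKO held too few neutrophils for a test.

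The gene called was Ifitm6 (chr7:141015699-141017924), of the interferon-induced transmembrane family, higher in Smad3SmKO by a log2 fold change of 1.91 ± 0.32 (SE, edgeR adjusted p = 0.00815). Its level was 1627, 34.3, 160, 1707 and 660 CPM in Smad3+/+ and 778, 4443, 106, 271 and 4350 CPM in Smad3SmKO replicates 1, 3, 4, 5 and 6. The groups overlapped almost fully, and the contrast rests on the batch term: without any covariate the log2 fold change was 1.31 with an adjusted p of 0.998. It passed in 11 of 24 alternative fits, and leaving out any 1 of Smad3+/+ replicates 1, 2 and 3 or Smad3SmKO replicates 1, 3, 4 and 6 ended the call, with adjusted p values of 0.079 to 0.313.

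The next 4 genes by p did not pass. Their log2 differences were 1.48 for Cd177, a surface protein that binds endothelial PECAM1 (adjusted p = 0.393), 1.45 for Cdk11b (0.393), 1.24 for Ifngr1, the interferon gamma receptor (0.671), and −1.57 for the chemokine Ccl6 (0.671), all in the same edgeR fit. Ifngr1 lay at 68.5 to 111 CPM in Smad3+/+ and at 151 to 340 CPM in Smad3SmKO, and was the 1 gene of the 1180 (0.0847%) whose groups did not overlap upward.

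No gene of any list passed between genotypes. The median log2 difference was 0.16 over the 15 neutrophil genes, 0.28 over the 8 secondary granule genes tested, 0.23 over 7 tertiary granule genes, 0.28 over 10 cytokines and chemokines, 0.69 over 4 ligands for neutrophil recruitment and −0.18 over 9 chemoattractant receptors, against 0.00 over all 1180 genes. Of the TGF-beta pathway, in which Smad3 acts, only 3 of 11 genes had enough UMIs to be tested. Smad3 itself gave 21 UMIs over all 741 neutrophils.

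Digestion time went with far more calls than genotype, in a fit that could not hold a batch term. The 18-week libraries digested for 60 min (Smad3+/+ replicates 4 and 5, Smad3SmKO replicates 5 and 6) were compared with those digested for 30 min (Smad3+/+ replicates 1, 2 and 3, Smad3SmKO replicates 1, 3 and 4), with genotype as a covariate. Digestion time, the tracer label (which GFP reads contradict in Smad3+/+ replicates 4 and 5) and batches 1 to 3 against 5 and 6 go together in these libraries and cannot be told apart. Of 1321 genes tested, 100 (7.57%) passed an adjusted p of 0.05 in edgeR's quasi-likelihood test. Libraries of the same batch were counted as independent, so the p values of this comparison take no account of differences between batches. Under an unadjusted 0.05 were 373 (28.2%). Of the 100, 59 (4.47%) were higher at 60 min and 41 (3.1%) lower. Without Smad3SmKO replicate 5, 67 passed, 45 higher and 22 lower. With upper quartile scaling, which moved the median of all genes by −0.11, the split was 53 higher and 65 lower.

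Cytokine and chemokine genes were among those higher at 60 min. Over all 1321 genes tested, 4.47% passed as higher, and the lists were chosen with earlier results of these data known. Of 12 tested, 4 passed, all higher (Tnf, Il1a, Cxcl3 and Cxcl2), with a list median of 1.08 on the log2 scale against 0.01 over all genes. Without Smad3SmKO replicate 5 the median was 0.92 and 3 passed. Of 6 ligands for neutrophil recruitment tested, 4 passed, all higher, with a median of 1.5. Without replicate 5, 2 passed and the median was 1.17. Cxcl2, Cxcl3 and Il1a stand in both lists.

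Tnf (chr17:35199381-35202007), the inflammatory cytokine, showed the smallest p among the genes that rose. It was at 189, 343, 320, 423, 281 and 212 CPM in the 30 min libraries (Smad3+/+ 1, 2 and 3, Smad3SmKO 1, 3 and 4) and at 1164, 721, 1745 and 1315 CPM in the 60 min libraries (Smad3+/+ 4 and 5, Smad3SmKO 5 and 6). The groups did not overlap, and the log2 fold change was 2.33 ± 0.29 (edgeR adjusted p = 0.000811), or 2.21 without Smad3SmKO replicate 5. It passed in all 21 alternative fits. Il1a, interleukin 1 alpha, rose by 3.93 ± 0.71 (edgeR adjusted p = 0.0109), or 3.25 without replicate 5 (0.0253), and also passed in all 21.

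The 3 CXCR2 ligands lie in 1 cluster on chromosome 5. Cxcl2 (chr5:90903871-90905938) was at 36826, 25999, 20343, 31850, 24846 and 26893 CPM in the 30 min libraries and at 31678, 49085, 111017 and 50930 CPM in the 60 min libraries, the lowest of which lay below 2 of the 30 min libraries. Its log2 fold change was 1.33 ± 0.34 (edgeR adjusted p = 0.0345), but only 0.96 without Smad3SmKO replicate 5 (adjusted p = 0.0608), and it passed in 11 of 21 alternatives, with adjusted p up to 0.222. Cxcl1 (chr5:90891241-90893115) rose by 1.67 ± 0.37 (adjusted p = 0.0194, and 1.14 with 0.0568 without replicate 5, in edgeR). Cxcl3 (chr5:90786103-90789600) rose by 5.66 ± 1.00 (edgeR adjusted p = 0.0126) from levels of 0 to 170 CPM to 45.9, 1064, 4477 and 462 CPM, so its groups overlapped. Without replicate 5 its log2 fold change was 4.18 (edgeR adjusted p = 0.0462).

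The 3 promoters, shown because these ligands were measured together, share a motif of 10 bases bound by NF-kB, GGGNNNTTCC on either strand. The 100 bases from 110 to 11 before the start of each RefSeq gene (GRCm38.p6, plus strand, which is the strand of all 3 genes) are given with each match in capitals.
Cxcl1, chr5:90891135-90891234: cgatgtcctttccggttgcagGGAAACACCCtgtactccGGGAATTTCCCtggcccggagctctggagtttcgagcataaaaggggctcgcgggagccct
Cxcl2, chr5:90903789-90903888: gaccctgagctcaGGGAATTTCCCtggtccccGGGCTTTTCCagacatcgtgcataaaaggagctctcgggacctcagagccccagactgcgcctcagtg
Cxcl3, chr5:90785991-90786090: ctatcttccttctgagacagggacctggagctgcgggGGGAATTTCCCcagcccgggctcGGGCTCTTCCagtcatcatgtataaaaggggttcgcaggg
Each holds 3 matches, since the longer stretch in capitals matches on both strands, with starts at neighbouring bases. Shares were counted over a longer upstream stretch that takes in this window. Of all 32851 RefSeq promoters, 4.65% held a match there. Of 1030 of the tested genes, 7.96% had a match in any of their promoters. Among the genes higher at 60 min 5 of 47 with a promoter held a match (10.6%), and among the lower genes 4 of 30 (13.3%). These shares rest on few genes, with Cxcl1, Cxcl2 and Cxcl3 among the 5, and the difference between them was not tested.

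Other cells of the same aortas carried these ligands too. In macrophages Cxcl2 was at 7903 ± 3155 CPM (SD, n = 7) in the 30 min libraries of 18 weeks and at 32087 ± 17124 (n = 4) at 60 min, and Tnf at 423 ± 226 and 1073 ± 281 CPM. In fibroblasts Cxcl1 was at 343 ± 121 and 3027 ± 1302 CPM. Their part in the levels of the neutrophils was not tested.

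The remaining genes that rose were of mixed function. By smallest adjusted p they were Pts (2.60 ± 0.39 on the log2 scale), an enzyme of tetrahydrobiopterin synthesis, Il23a (3.51 ± 0.53), the p19 subunit of interleukin 23, Crip1 (2.86), the transcriptional repressor Tgif1 (2.24), Sod2, the mitochondrial superoxide dismutase (2.42), the metallothionein Mt1 (2.81), the invariant chain Cd74 (2.97), the protease inhibitor Serpinb2 (5.40) and Rabgef1 (2.07), with edgeR adjusted p between 0.00427 and 0.00903. All 9 but Sod2 had levels that did not overlap between digestion times, as did 32 genes (2.42%) upward and 99 (7.49%) downward. Crip1, Mt1 and Cd74 are high in other aortic cells, at 3387, 2799 and 1244 CPM on average outside the neutrophils, and Acta2, the actin of smooth muscle, rose by 2.40 (edgeR adjusted p = 0.0434, and 1.36 with 0.0650 without replicate 5). The part of RNA from other cells in these genes was not tested. Il23a was at 0 to 76.1 CPM at 30 min and 184 to 809 CPM at 60 min.

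Xpc (chr6:91489305-91515888), which detects DNA lesions for excision repair, gave the smallest p of all genes and fell. It was at 312, 240, 293, 152, 150 and 149 CPM in the 30 min libraries and at 30.6, 17.6, 8.30 and 11.5 CPM in the 60 min libraries. No value overlapped, and the log2 fold change was −3.55 ± 0.35 (edgeR adjusted p = 0.000122), past the threshold in all 21 alternatives. In macrophages Xpc was at 10.2 ± 3.28 CPM (n = 7) and 7.91 ± 3.37 CPM (n = 4), a difference within the spread. Smad3+/+ replicate 1 of 10 weeks, also digested for 60 min but not in the fit, had 65.8 CPM of Xpc and 461 CPM of Tnf, between the 30 and the 60 min libraries of 18 weeks for Xpc and for Tnf as well. Of the libraries with too few neutrophils for the fit, Smad3SmKO replicate 7 (60 min, 3 cells) had 5650 CPM of Tnf and 0 of Xpc, and replicate 2 (30 min, 4 cells) 0 of Tnf and 592 CPM of Xpc.

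Tsc22d3, the glucocorticoid-induced leucine zipper, fell by 2.25 on the log2 scale (SE 0.39, edgeR adjusted p = 0.00701), from 402 to 1404 CPM down to 54.4 to 283 CPM. It was also lower at 60 min in macrophages, at 239 ± 39.5 against 754 ± 264 CPM. The 8 others by smallest p were AI467606 (−2.11), Gpcpd1 (−1.78), Tbc1d15 (−1.46), Cd84 (−1.55), the transcription factor Klf3 (−1.39), March7 (−1.62), Bloc1s2 (−1.54) and the lipase Pnpla2 (−1.47), with edgeR adjusted p up to 0.0233. AI467606 and Gpcpd1 passed in all 21 alternatives and the other 6 in 14 to 18 of them.

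Most other groups of genes gave no or few calls, to be read against the 4.47% higher and 3.1% lower over all genes. The 9 secondary granule genes, 7 tertiary granule genes, 6 oxidase genes, 7 glycolysis genes, 7 interferon-induced genes and 8 transcription factors tested had none, with list medians of 0.98, −0.03, 0.29, 0.57, 0.03 and −0.20. The 14 immediate early genes, often raised by tissue digestion, had none either and a median of −0.56, with Fos at −1.76 (adjusted p = 0.0594 in edgeR). Without Smad3SmKO replicate 5, 1 oxidase gene passed as higher and 1 immediate early gene as lower, with an immediate early median of −0.73. The secondary granule median was then 1.65, and the other lists without calls still had none. Of 9 chemoattractant receptors 1 rose, Ptafr, the receptor of platelet-activating factor (1.37). Of 8 adhesion genes 2 fell, Selplg, the ligand of P-selectin (−0.83), and Jaml (−1.61). Of 10 Fc, lectin and pattern receptors 2 rose, Clec4e (1.23) and Fcer1g (0.95), and of 9 growth factor receptor and survival genes 1 fell, Csf2rb (−1.19). Within the 15 neutrophil genes G0s2 rose (1.22) and Msrb1 fell, while Retnlg stood at −0.13 and Mmp8 at −0.17 (adjusted p = 0.947 and 0.955, edgeR). Of these single calls, Selplg passed in 6 of 21 alternatives, Csf2rb in 7, Jaml in 9, Fcer1g in 12, Ptafr in 14, Msrb1 in 15, Clec4e in 18 and G0s2 in 20.

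**Figure D4:**
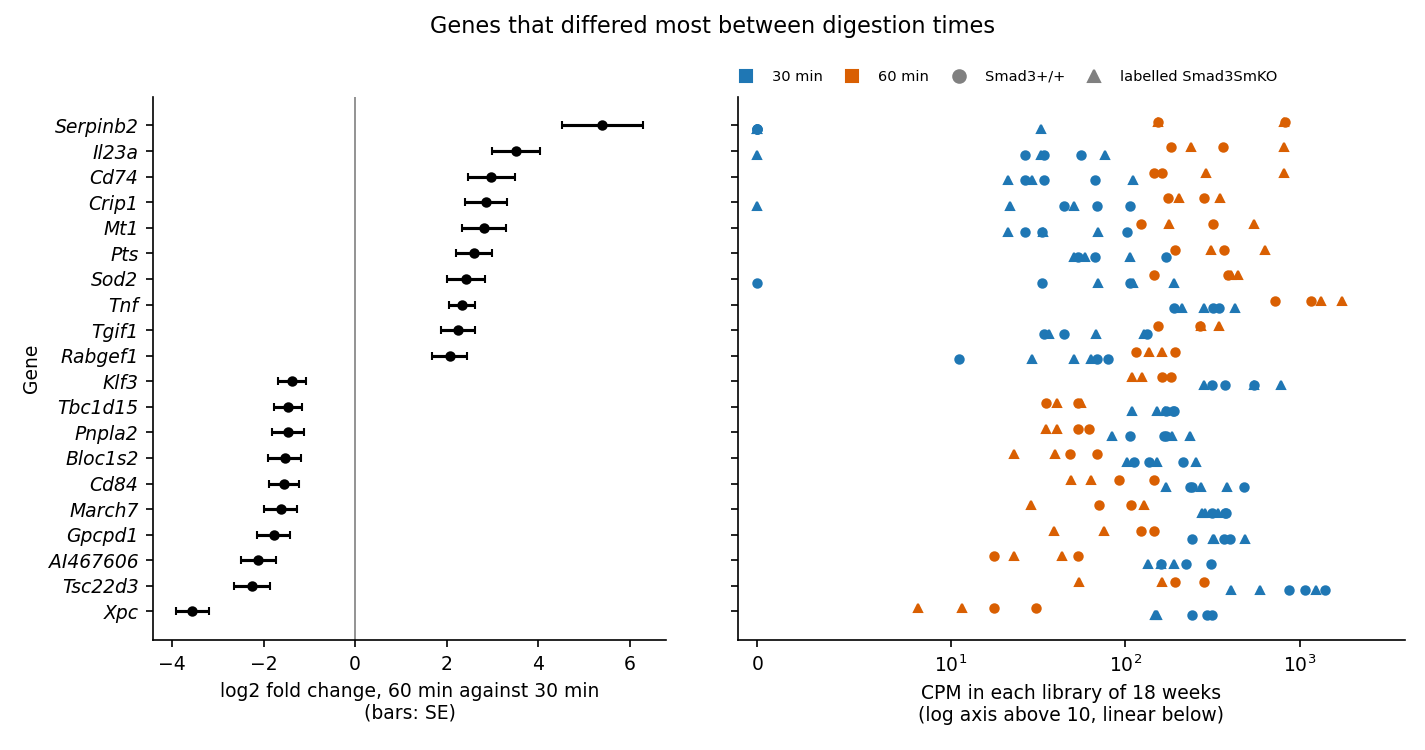
Left, log2 fold change of 60 against 30 min in the neutrophils of 18 weeks (bars are the SE) for the 10 genes with the smallest adjusted p in each direction; right, their CPM in each of the 10 libraries (logarithmic above 10), with colour for digestion time and shape for genotype. Tnf lies at 721 to 1745 CPM at 60 min against 189 to 423 at 30 min, and Xpc at 8.30 to 30.6 against 149 to 312.

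The share of neutrophils did not follow digestion time in the same way. It was 1.42% ± 1.23 (n = 7) at 30 min and 2.80% ± 4.22 (n = 5) at 60 min (exact permutation p = 0.573), and the difference of 1.38 points turned to −0.498 without Smad3SmKO replicate 5 (p = 0.467, exact permutation). Of neutrophils and macrophages together, neutrophils made up 21.7% and 45.0% (exact permutation p = 0.0593).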

How the data were processed

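The authors deposited UMI counts per gene and barcode for each of the 16 libraries (10x Genomics 3' v3, Cell Ranger, mm10, with Seurat in the processing notes; the file headers name cellranger 4.0.0). Viable nucleated cells had been sorted, and reads and their depth are not used here. Barcodes were filtered as the study states, and neutrophils by the marker rule. No doublet caller was run beyond the exclusion markers. Members and gene lists were chosen with earlier results of these data known. UMIs summed per library with at least 10 neutrophils were tested with edgeR 4.0.16 (TMM, quasi-likelihood, Benjamini-Hochberg, threshold 0.05) in R 4.3.3, and with DESeq2 1.42.0 as an alternative, after a low-count filter over groups of at least 2 libraries. Shares used exact permutation tests (scipy 1.17.1) and exact binomial intervals, which cover counting error only. Levels were not divided by gene length, since 3' UMIs do not scale with it, and differences in capture between genes were not tested. The text names up to 10 genes per direction by adjusted p, or 5 where fewer than 5 pass. Each library is 1 mouse, and coordinates come from GENCODE M21.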

Additional observations from a re-analysis of the deposited data

Results flagged for a closer look

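In the tests for a value far from its group, 72 groups of values (shares and 34 genes) gave 11 such values, 6 of them in Smad3SmKO replicate 5 of 18 weeks, and chance alone would mark about 1 in 20 groups. The gap to the nearest library is larger than Dixon's 95% limit in each. In Smad3SmKO replicate 5 the values were the share of neutrophils (10.3%, next 3.26%), the same share with no lower limit on UMIs and genes (18.5%, next 5.30%), Cxcl3 (4477 CPM, next 462), Cxcl1 (3720 CPM, next 1096), Il1a (1611 CPM, next 485) and Ccl4 (8154 CPM, next 2403). In Smad3+/+ replicate 5 they were the share with no lower limit (2.53%, next 0.940%), Cxcl3 (1064 CPM, next 45.9), Ccl3 (901 CPM, next 207) and Serpinb2 (818 CPM, next 153). Serpinb2 was also apart in Smad3SmKO replicate 6, at 813 CPM against 153 in the next library. All 3 libraries were digested for 60 min.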

How the results depend on the processing

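For shares, the alternatives kept the direction except for digestion time, where the difference of 1.38 points became −0.498 without Smad3SmKO replicate 5 and −0.672 when the lower limits were dropped as well; the cause was not tested. Leaving out 1 library gave 0.597 to 2.30 points for genotype at 18 weeks, −0.426 to −0.0960 at 10 weeks and −0.498 to 1.96 for digestion time. The single gene called by genotype became 6 of 12374 with no filter on low counts, 2 with libraries of at least 5 neutrophils, 0 to 4 without 1 library, and 0 with at least 20 neutrophils per library, without cells carrying 2 UMIs of other types, without a covariate, with digestion time in place of batch, and without both the lower limits and Smad3SmKO replicate 5. The 100 genes called by digestion time became 171 in DESeq2, 364 of 12304 with no filter, 26 with at least 20 neutrophils per library and 30 to 141 without 1 library, the lowest being 30 without Smad3SmKO replicate 1, 34 without Smad3+/+ replicate 5, 50 without Smad3SmKO replicate 6, 60 without Smad3+/+ replicate 3 and 62 without Smad3+/+ replicate 2. Dropping the lower limits and leaving out cells with monocyte genes were chosen after seeing the data. The genotype test at 10 weeks could not be run as planned. With no lower limit edgeR called 0 of 2085 genes there, with 72 under an unadjusted 0.05. No paired analysis was run because the labels give no pairs of mice. The batches that hold both genotypes entered as a covariate and in the permutation within batches. Depth limits the tests to genes with enough UMIs in 11 to 404 neutrophils per library.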
